A study of Mus musculus with 24 samples.

Results

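The genes described here encode testis forms of respiratory proteins and their general counterparts. They were chosen by symbol from the count tables, and all 10 of the 10 symbols were found among 24456 genes. The 5 testis forms are *Cyct* (cytochrome c), *Cox6b2*, *Cox7b2* and *Cox8c* (subunits of cytochrome c oxidase) and *Slc25a31* (ADP/ATP carrier). The 5 general forms are *Cycs*, *Cox6b1*, *Cox8a*, *Slc25a4* and *Slc25a5*. *Cox7b*, the counterpart of *Cox7b2*, is given beside it.

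Whole testes came from wild-type (WT) male mice and from homozygous *Atad2* knockout (KO) males on postnatal days 20, 22, 24 and 26, while the first wave of spermatogenesis passes from meiosis to spermatids. The KO allele joins the first part of *Atad2* to a lacZ reporter and, after a cross with mice that express Cre in all tissues from the CMV promoter, lacks the neo cassette and exon 12, so loss of the protein is not limited to germ cells. Total RNA depleted of ribosomal RNA was sequenced with strand kept. At days 20 and 22 there were 4 libraries of each genotype, and at days 24 and 26 there were 2, which makes 24 libraries in 8 groups. Numbers of libraries follow the labels; the paper's text gives fewer for the youngest mice. The labels call the samples testis, while the extraction notes of the same samples also mention the purification of spermatogenic cell fractions.

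Cytochrome c carries electrons from complex III to cytochrome c oxidase (complex IV), the last enzyme of the respiratory chain. Small nuclear-encoded subunits such as COX6B, COX7B and COX8 surround the catalytic core of complex IV, and ADP/ATP carriers of the inner membrane export the ATP that is made. Male germ cells replace several of these proteins with forms encoded by separate genes, which are used in meiotic cells, spermatids and sperm.

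The cytochrome c pair shows how far such forms differ and why their reads can be told apart. The first 300 bases of each coding sequence are from the GENCODE M21 transcripts, and capitals mark the bases at which they differ from each other.
Cyct: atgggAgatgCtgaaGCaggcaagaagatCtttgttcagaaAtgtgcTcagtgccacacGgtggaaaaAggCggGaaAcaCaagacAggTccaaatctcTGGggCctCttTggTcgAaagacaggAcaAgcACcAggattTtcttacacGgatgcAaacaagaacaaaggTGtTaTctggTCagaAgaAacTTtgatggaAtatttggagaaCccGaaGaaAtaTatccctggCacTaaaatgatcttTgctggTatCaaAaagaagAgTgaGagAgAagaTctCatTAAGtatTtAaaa
Cycs: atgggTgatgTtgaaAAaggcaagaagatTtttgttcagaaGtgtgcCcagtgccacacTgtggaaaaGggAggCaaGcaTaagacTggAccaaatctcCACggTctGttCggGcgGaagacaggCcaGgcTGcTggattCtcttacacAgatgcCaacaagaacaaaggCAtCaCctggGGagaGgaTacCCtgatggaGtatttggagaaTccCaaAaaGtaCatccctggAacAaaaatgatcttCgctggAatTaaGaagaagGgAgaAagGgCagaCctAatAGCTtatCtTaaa
Both coding sequences are 315 bases long without the stop codon, and 75 bases of these differ, an identity of 76.2%. The other pairs were less alike: 60.8% for *Cox6b2* and *Cox6b1*, 63.8% for *Cox7b2* and *Cox7b*, 51.3% for *Cox8c* and *Cox8a*, and 61.5% and 61.3% for *Slc25a31* with *Slc25a4* and *Slc25a5*. The 2 general carriers shared 77.4% with each other. Members were not a source of shared reads with each other here, but copies elsewhere were. Of the 75-base stretches of the *Cycs* transcript 26.1% also occur in 5 pseudogene-type genes, and of those of *Slc25a5* 27.9% occur in 6. Pairs that aligned to several places were discarded, so both genes are under-counted and their levels are uncertain. No 75-base stretch of the other 8 members occurs in another gene.

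On mm10 *Cyct* lies on chromosome 2 from 76353942 to 76360450 and *Cycs* on chromosome 6 from 50562563 to 50566538, both on the minus strand. *Cox6b1* (30616861 to 30626151) and *Cox6b2* (4751792 to 4753094) are both on the minus strand of chromosome 7. *Cox7b2* is on chromosome 5 from 71442824 to 71548205 and *Cox8a* on chromosome 19 from 7215153 to 7217616, both minus, and *Cox8c* is on chromosome 12 from 102899316 to 102900526, plus. *Slc25a31* is on chromosome 3 from 40708855 to 40726096, plus, and *Slc25a4* on chromosome 8 from 46206797 to 46211284, minus. *Slc25a5* is on the X chromosome from 36795651 to 36798807, plus, and *Cox7b* is X-linked too. Counts were taken over the exons of each gene.

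The promoters of the cytochrome c pair, 250 bases before to 50 after the RefSeq start (GRCm38.p6), are shown because the ratio of the pair is followed with age. Capitals mark matches on either strand to CCAAT, TGACGTCA (the cAMP response element, CRE), its shorter form TGACGT, GCATGCGC (part of the NRF1 motif) and TTCCCGC (E2F). A full CRE also counts as matches of its shorter form.
Cyct promoter, chr2:76360404-76360703, minus strand: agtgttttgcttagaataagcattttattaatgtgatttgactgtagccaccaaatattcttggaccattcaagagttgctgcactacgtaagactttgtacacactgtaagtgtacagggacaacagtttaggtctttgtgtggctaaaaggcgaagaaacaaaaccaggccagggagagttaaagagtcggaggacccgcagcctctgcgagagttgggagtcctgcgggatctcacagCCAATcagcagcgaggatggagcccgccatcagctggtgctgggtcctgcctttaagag
Cycs promoter, chr6:50566520-50566819, minus strand: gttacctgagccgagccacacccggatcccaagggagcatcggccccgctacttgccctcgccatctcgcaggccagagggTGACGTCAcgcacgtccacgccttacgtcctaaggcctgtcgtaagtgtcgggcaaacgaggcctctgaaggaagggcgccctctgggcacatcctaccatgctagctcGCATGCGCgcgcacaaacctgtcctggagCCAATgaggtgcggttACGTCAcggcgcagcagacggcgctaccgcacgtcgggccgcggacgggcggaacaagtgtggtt
The *Cycs* window held a CRE, which 1.79% of 32851 promoters hold, GCATGCGC, which 2.71% hold, and CCAAT, which 37.4% hold. The *Cyct* window held only CCAAT of these letters. Promoter windows were matched for 9 of the 10 members, of which 7 held CCAAT, and *Slc25a31* was the only other one with GCATGCGC. These matches are descriptions of letters, not of binding.

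Between 10709667 and 19491935 read pairs were assigned to genes in a library, and 17170 genes passed the filter on low counts, all 10 members among them. Levels are CPM, read pairs scaled to a common library size with trimmed-mean (TMM) factors, and a library is named by genotype, day and replicate (WT_d20_2). *Atad2* was lower in KO than in WT at each day, with no overlap between the libraries (log2 fold change -1.67 to -1.12, adjusted p in edgeR 5.7e-05 to 0.0628). Summed levels of 5 round spermatid markers ranged from 3.01 to 8.28 CPM in WT and from 8.04 to 74.0 CPM in KO at day 20, and from 448 to 466 and 462 to 507 CPM at day 26. Summed levels of 5 elongating spermatid markers were 1135 to 2141 CPM in WT and 2122 to 2225 CPM in KO at day 26. At day 22 they were 24.0 to 272 CPM in KO and 10.2 to 23.0 CPM in WT, without overlap. At day 24 they were 437 and 1112 CPM in KO and 179 and 188 CPM in WT, without overlap. Of 12 marker sums, 1 was higher and 1 lower in KO without overlap at day 22, and 3 and 3 at day 24. Among all genes 8.09% and 44.0% did not overlap at these days. The part of these sums in the member values was not tested. All 6 Sertoli, 6 Leydig and 5 peritubular markers were detected. At day 26, 7 of 12 marker sums did not overlap between the genotypes, a day at which 59.0% of all genes did not overlap. Pachytene markers were higher in KO (2551 and 2597 CPM against 1934 and 2226 CPM). Those lower in KO were spermatogonia, early meiosis (499 and 508 against 597 and 647 CPM), Sertoli (301 and 330 against 344 and 381 CPM), Leydig (872 and 999 against 1095 and 1805 CPM), peritubular (270 and 313 against 363 and 436 CPM) and endothelial markers (28.2 and 31.7 against 43.9 and 44.8 CPM). Epididymis markers at day 26 were at 0.174 and 545 CPM in WT and 0.0689 and 128 CPM in KO. In RNA of a whole testis, fewer cells of a type and less RNA per cell cannot be told apart.

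Libraries also differed in how short transcripts were represented, and 6 members have transcripts under 800 bases. A short-transcript score was taken as the median centred log2 level of 556 protein-coding genes with transcripts under 800 bases minus that of 14707 longer ones. It was 0.31 in WT_d20_2, -0.56 in KO_d22_4 and -0.37 in WT_d20_1, and between -0.20 and 0.20 in all others. Across the 24 libraries Pearson's r with this score was 0.80 for *Cox8c* (458 bases), 0.80 for *Cyct* (655 bases), 0.69 for *Cox7b2* and 0.54 for *Cox6b1*, against 0.02 for *Slc25a4*. Of the short members *Cox6b2* (r = 0.15) and *Cox8a* (r = 0.23) followed it little. These are descriptions over libraries that share groups. In WT_d20_2, pairs with several alignments also took 13.7% of the table, the highest share. Some of the values from fits with the score as a covariate, and without these libraries, are given beside the results.

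**Figure D1:**
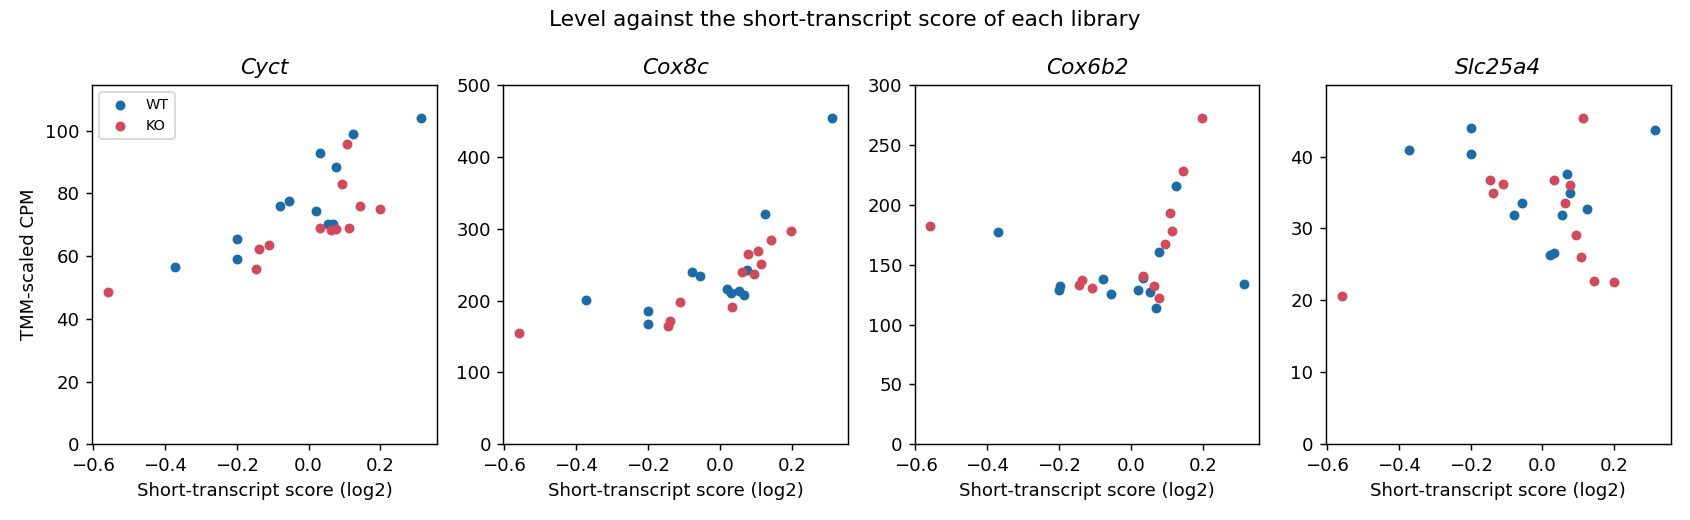
Each point is 1 library, with its short-transcript score (log2 difference) on the horizontal axis and the TMM-scaled CPM of 4 members on the vertical axis, WT blue and KO red. *Cyct* and *Cox8c* were higher where the score was higher (r = 0.80 each), while *Slc25a4* showed no such order (r = 0.02).

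Between genes, levels are compared as CPM per kilobase of exon. On that scale each testis form stood above its counterpart at day 26 in WT, except that *Slc25a31* stood above *Slc25a4* and below *Slc25a5*. At day 26 in WT the order was *Cox8c* (469 ± 2.44, SD, n = 2), *Cox7b2* (417 ± 30.6), *Cox6b2* (195 ± 2.23), *Cyct* (110.3 ± 4.30), *Slc25a5* (78.3 ± 5.50), *Cox6b1* (74.3 ± 7.07), *Cox8a* (53.4 ± 10.6), *Slc25a31* (46.5 ± 1.80), *Slc25a4* (15.1 ± 2.01) and *Cycs* (10.5 ± 1.26). Libraries of neighbours in that order overlapped for *Slc25a5* and *Cox6b1* and for *Cox8a* and *Slc25a31*, and for no other neighbours. In KO at day 26 *Cox6b2* (382 ± 48.2) stood above *Cox7b2* (282 ± 19.9), without overlap, the reverse of WT. *Cycs* has a transcript of 3123 bases, so its level per kilobase rests on that model as well as on the discarded pairs.

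The knockout was compared with WT at each day, as the mean of the 4 daily differences, and as the difference of its effect between days. None of the 10 members was called in any of these, at an adjusted p under 0.05 in edgeR's quasi-likelihood test over all 17170 genes. Among all genes 3.34% were called at day 20, 2.51% at day 22, 0.0874% at day 24, 0.0466% at day 26, 7.08% for the mean of the days and 0.00582% for the difference between days. The number of members with an unadjusted p under 0.05 was 0 at days 20, 22 and 24, 2 at day 26, 1 for the mean and 1 for the difference between days. Among all genes that share was 12.5%, 14.6% and 5.23% at days 20, 22 and 24, 11.5% at day 26, 23.2% for the mean and 9.06% for the difference between days. The median log2 fold change of the members was -0.06, -0.16, 0.04 and -0.14 over the days, against medians over all genes of 0.005, 0.01, -0.01 and -0.04. Labels name the libraries of a group as separate samples. The edgeR p-values set each difference against a spread between libraries that is estimated over all 8 groups together. Days 24 and 26 have 2 libraries of each genotype, so their p-values lean on the spread at other days.

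**Figure D2:**
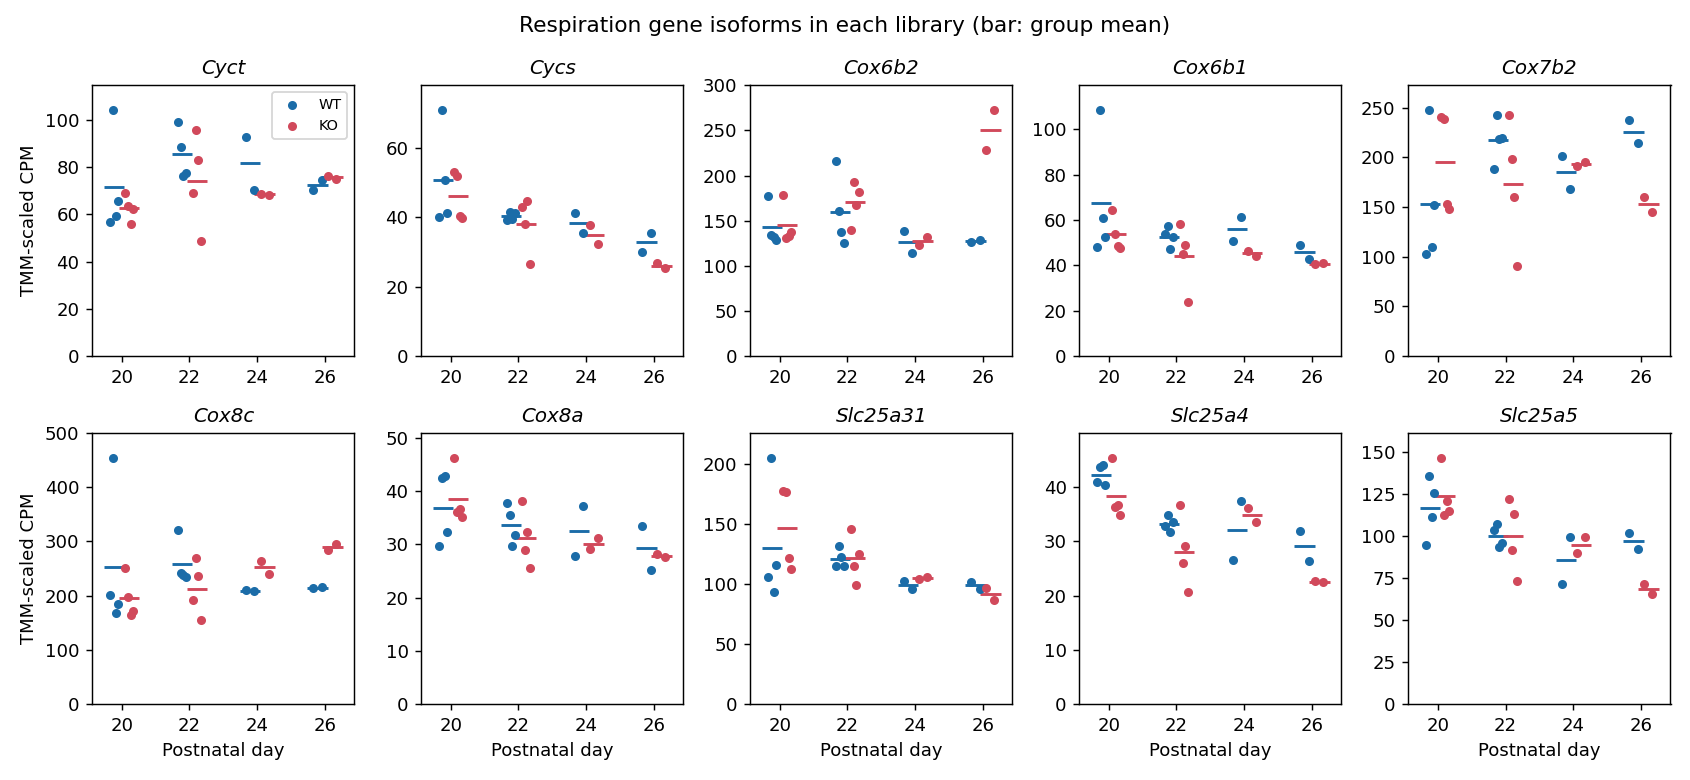
TMM-scaled CPM of the 10 members by postnatal day, WT blue and KO red, with 1 point per library and a bar at each group mean; each vertical axis starts at 0. *Cox6b2* at day 26 is the clearest separation, at 127 and 129 CPM in WT and 228 and 273 CPM in KO.

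Cytochrome c. *Cyct* held between 56.5 and 104 CPM in WT and 55.9 and 68.8 CPM in KO at day 20, and the highest value was that of WT_d20_2. At day 26 it was 70.3 and 74.3 CPM in WT and 76.1 and 75.0 CPM in KO. The log2 fold changes of KO against WT lay between -0.25 and 0.06, with standard errors of 0.18 to 0.26, and the only positive one was that of day 26. None of these signs or sizes was firm, since the day 20 value was 0.036 without WT_d20_2, the day 22 value -0.047 without KO_d22_4, the day 24 value -0.036 without WT_d24_1 and the day 26 value -0.10 with the score as a covariate. *Cycs* was 40.2, 71.1, 50.9 and 41.3 CPM in WT and 53.1, 52.0, 40.5 and 39.7 CPM in KO at day 20. At day 26 it was 30.0 and 35.6 CPM in WT and 26.8 and 25.3 CPM in KO, so both KO libraries lay below both WT libraries. That difference was -0.33 (SE 0.24, 95% interval -0.84 to 0.17, adjusted p = 0.62 in edgeR).

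Subunits of complex IV. *Cox6b2*, the testis form of COX6B, which faces the intermembrane space where 2 enzyme complexes meet, was the member with the largest difference. At day 26 it was 127 and 129 CPM in WT and 228 and 273 CPM in KO, and the groups did not overlap. At day 20 it was 178, 134, 132 and 129 CPM in WT and 178, 130.5, 133 and 137 CPM in KO. At day 22 it was 216, 161, 138 and 125 CPM in WT and 140.3, 193, 167 and 182 CPM in KO, and at day 24 it was 139 and 114 CPM in WT and 123 and 132 CPM in KO. The 2 genotypes overlapped at these 3 days.

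The log2 fold change at day 26 was 0.97 (SE 0.22, 95% interval 0.51 to 1.43), and its adjusted p of 0.0927 in edgeR missed the threshold. It passed when day 26 was fitted alone (0.98, adjusted p = 0.00077), in DESeq2 (1.02, adjusted p = 0.0064), without WT_d20_2 (adjusted p = 0.0369) and without WT_d22_1 (adjusted p = 0.0473). With WT_d20_2 and KO_d22_4 both removed the adjusted p was 0.0363, and with the short-transcript score as a covariate 0.0388, with log2 fold changes of 0.98 and 0.97. When single libraries were removed in turn, the log2 fold change stayed between 0.86 and 1.12 and the adjusted p ran from 0.0369 to 0.928 (without KO_d26_2), and with the replicate block it was 0.192. Both KO libraries of day 26 had higher short-transcript scores (0.14 and 0.20) than the WT libraries (0.054 and 0.02). At the other days the log2 fold changes were 0.02, 0.09 and 0.01. The elongating spermatid marker sum at day 26, 1135 and 2141 CPM in WT and 2122 and 2225 CPM in KO, overlapped between genotypes. The pachytene sum was higher in both KO libraries, and the early meiotic, spermatogonial and somatic sums named above were lower. The part of these sums in the day 26 differences of *Cox6b2* and the other members was not tested. The mean of the 4 days was 0.27 (SE 0.096, adjusted p = 0.0847), and whether the KO effect differed between days had an adjusted p of 0.375 in edgeR. *Cox6b1*, the general form, was 49.0 and 42.8 CPM in WT and 40.6 and 41.0 CPM in KO at day 26, with log2 fold changes of -0.33 to -0.17 over the days, none of which passed. These values were smaller without single libraries, at -0.024 without WT_d20_2 (day 20), -0.055 without KO_d22_4 (day 22), -0.14 without WT_d24_2 (day 24) and -0.059 without WT_d26_1 (day 26). The day 20 value was larger without WT_d20_1, at -0.46. With the short-transcript score as a covariate *Cox6b1* passed at day 20 (-0.34, adjusted p = 0.0496 in edgeR). It also passed for the mean of the days (-0.31, adjusted p = 0.0039), and the day 26 value was -0.39. In these fits 4.44% of all genes were called at day 20 and 11.7% for the mean.

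*Cox7b2*, the testis form of COX7B, was 238 and 214 CPM in WT and 160.5 and 145 CPM in KO at day 26, without overlap, a difference of -0.56 on the log2 scale (SE 0.37, adjusted p = 0.589 in edgeR). At day 20 it was 103, 248, 109 and 152 CPM in WT and 240.4, 238, 153 and 148 CPM in KO, a difference of 0.35 (SE 0.26). With WT_d20_2 and KO_d22_4 removed the day 20 difference was 0.69 and passed (adjusted p = 0.0404). *Cox7b* was 17.2 and 14.9 CPM in WT and 12.6 and 13.3 CPM in KO at day 26 (-0.31, SE 0.33).

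*Cox8c*, the testis form of the small subunit COX8, was the most abundant member per kilobase. It was 214 and 215 CPM in WT and 284 and 296 CPM in KO at day 26, without overlap, with a log2 fold change of 0.43 (SE 0.34, adjusted p = 0.654 in edgeR), which was 0.23 with the short-transcript score as a covariate. At day 20 it was 201, 455, 168 and 185 CPM in WT, where WT_d20_2 stood alone, and 251, 198, 165 and 172 CPM in KO. The difference of -0.36 (SE 0.24) at day 20 became 0.073 without WT_d20_2. *Cox8a* ranged from 25.2 to 46.3 CPM over all 24 libraries, with log2 fold changes between -0.11 and 0.07.

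ADP/ATP carriers. *Slc25a31*, the carrier of germ cells, was 102 and 96.2 CPM in WT and 96.7 and 87.0 CPM in KO at day 26, and its log2 fold changes lay between -0.11 and 0.18. The day 20 value of 0.18 was 0.47 without WT_d20_2 (adjusted p = 0.0815 in edgeR) and 0.49 with KO_d22_4 removed as well (adjusted p = 0.0568). *Slc25a4*, the main carrier of heart and muscle, was 31.8 and 26.3 CPM in WT and 22.6 and 22.5 CPM in KO at day 26 (-0.36, SE 0.20, adjusted p = 0.501 in edgeR), a difference of -0.21 without WT_d26_1. *Slc25a5*, the widely used X-linked carrier, was 102 and 92.3 CPM in WT and 71.2 and 65.5 CPM in KO at day 26. That difference was -0.51 (SE 0.21, 95% interval -0.94 to -0.08), with an unadjusted p of 0.0236 and an adjusted p of 0.351 in edgeR, and it passed with the short-transcript score as a covariate (-0.61, adjusted p = 0.0496). When day 26 was fitted alone, 4 members passed, *Cox6b2* and *Cox8c* higher and *Cox7b2* and *Slc25a5* lower, in a fit that called 12.8% of the genes it tested.

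**Figure D3:**
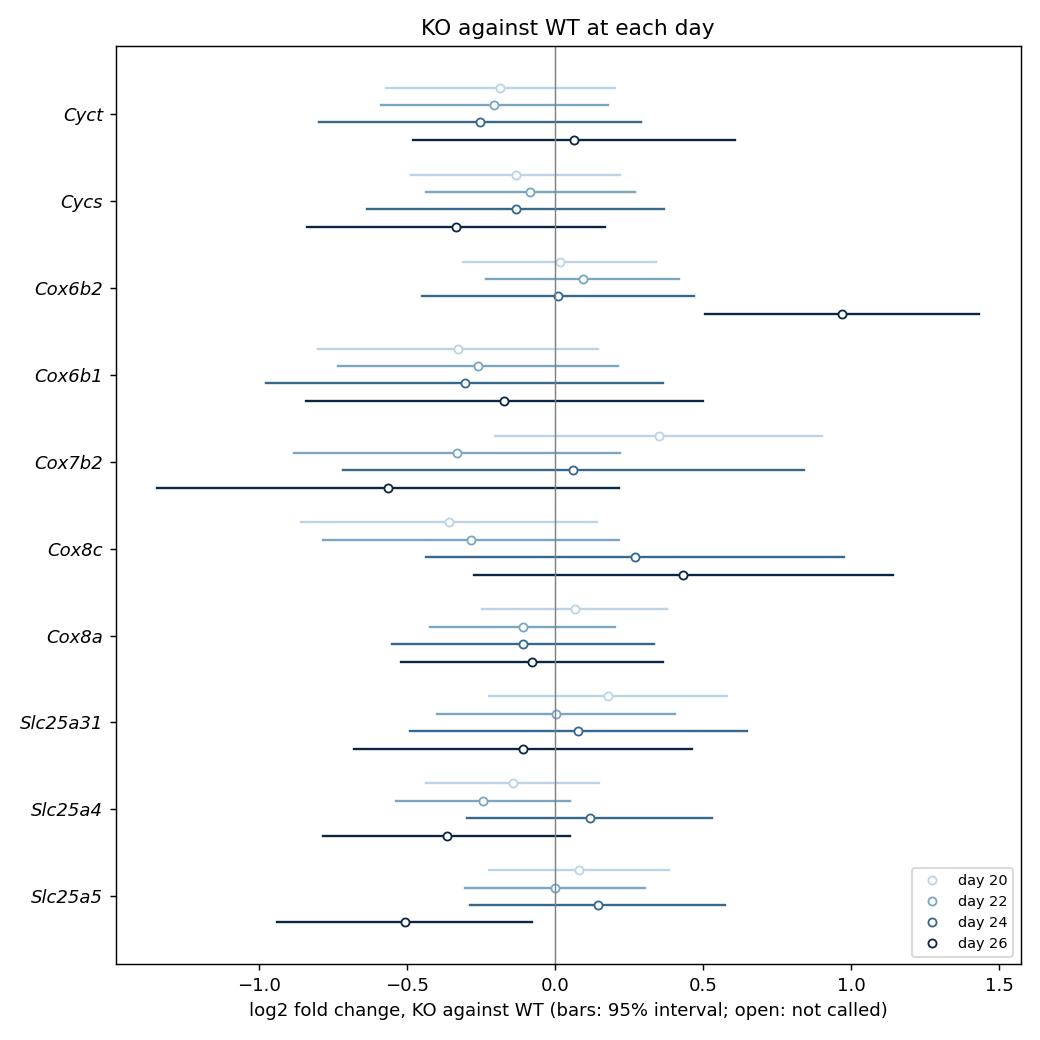
log2 fold change of KO against WT for each member at each day (points, darker for later days) with 95% intervals; open points were not called. The *Cox6b2* interval at day 26 (0.51 to 1.43) and that of *Slc25a5* (-0.94 to -0.08) exclude 0, and all points are open.

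The libraries of the 2 genotypes overlapped for all 10 members at days 20 and 22, where 4.71% and 8.09% of all genes did not overlap. At day 24, with 2 libraries a group, 4 members did not overlap (*Cox8c* and *Slc25a31* higher, *Cyct* and *Cox6b1* lower), against 44.0% of all genes (22.6% higher and 21.4% lower). At day 26, 8 members did not overlap (*Cyct*, *Cox6b2* and *Cox8c* higher, and *Cycs*, *Cox6b1*, *Cox7b2*, *Slc25a4* and *Slc25a5* lower), against 59.0% of all genes (27.8% higher and 31.1% lower).

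Age was compared between days 20 and 26 within each genotype. In WT, 2 of 10 members were called and both fell, where 42.5% of all genes were called and 18.1% were called lower. *Cycs* fell by 0.63 on the log2 scale (SE 0.21, adjusted p = 0.0217 in edgeR) and *Slc25a4* by 0.54 (SE 0.18, adjusted p = 0.018). *Slc25a4* was 40.9, 43.7, 44.0 and 40.4 CPM in WT at day 20 against 31.8 and 26.3 CPM at day 26, and the days did not overlap. Libraries of the days did not overlap for 2 members in WT, against 50.4% of all genes, and for 9 in KO, against 70.0%. Without WT_d26_2 neither call held (*Cycs* -0.76, adjusted p = 0.0547; *Slc25a4* -0.41, adjusted p = 0.198), and without WT_d26_1 *Cycs* did not pass (-0.52, adjusted p = 0.151). Of the testis forms, *Cox7b2* had a log2 fold change of 0.56 (SE 0.32, adjusted p = 0.16), which was 0.85 without WT_d20_2 (adjusted p = 0.0212). With the replicate block *Cox6b1* (-0.70, adjusted p = 0.04 in edgeR) and *Slc25a31* (-0.54, adjusted p = 0.047) also passed. With the score as a covariate *Cox6b1* (-0.73, adjusted p = 5.4e-05), *Cox8a* (-0.42, adjusted p = 0.0259) and *Slc25a5* (-0.38, adjusted p = 0.0226) also passed. These 2 fits called 45.2% and 51.6% of all genes.

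In KO, 6 of 10 members were called, where 52.2% of all genes were called, 27.2% higher and 24.9% lower. *Cox6b2* rose by 0.79 (SE 0.19, adjusted p = 0.00149 in edgeR). The others fell: *Slc25a5* by 0.85 (adjusted p = 0.000774), *Cycs* by 0.83 (adjusted p = 0.00325), *Slc25a4* by 0.76 (adjusted p = 0.00145), *Slc25a31* by 0.68 (adjusted p = 0.0245) and *Cox8a* by 0.47 (adjusted p = 0.0416). The call of *Slc25a31* was lost without any 1 of 4 KO libraries (KO_d20_1, KO_d20_2, KO_d26_1 and KO_d26_2, adjusted p from 0.0633 to 0.146) and that of *Cox8a* without KO_d20_1, KO_d26_1 or KO_d26_2 and in DESeq2 (adjusted p = 0.0937). Both calls were also lost with RLE size factors (adjusted p = 0.0503 and 0.0945), and that of *Cox8a* without the filter on low counts (adjusted p = 0.0582). With the score as a covariate 8 members were called, with *Cox6b1* (-0.78, adjusted p = 4.3e-05) and *Cox7b2* (-0.74, adjusted p = 0.00546) added. With WT_d20_2 and KO_d22_4 both removed 8 were called, with *Cox6b1* (-0.37, adjusted p = 0.0216) and *Cox8c* (0.59, adjusted p = 0.00266) added. These fits called 59.3% and 61.2% of the genes tested. The median log2 fold change of the members was -0.29 in WT and -0.43 in KO, against -0.04 and -0.07 over all genes. Of 12 marker sums, 4 were higher in every library at day 26 than at day 20 in both genotypes (pachytene, round spermatid, elongating spermatid and Leydig), and 5 were lower in both (spermatogonia, early meiosis, Sertoli, peritubular and endothelial). In WT the peritubular sum was between 593 and 1036 CPM at day 20 and at 363 and 436 CPM at day 26. The Sertoli sum was between 416 and 570 CPM and then at 344 and 381 CPM, and the spermatogonial sum between 250 and 307 CPM and then at 162 and 175 CPM. The part of these sums in the age values was not tested.

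The age change itself was compared between genotypes. No member was called and no gene was (0.0%), with 1857 genes at an unadjusted p under 0.05 and 211 genes called in DESeq2. *Cox6b2* had the largest difference among the members, 0.95 (SE 0.27, unadjusted p = 0.002, adjusted p = 0.184 in edgeR), which passed in DESeq2 (adjusted p = 0.042). *Cox7b2* differed by -0.91 (SE 0.46), *Cox8c* by 0.79 (SE 0.42; 0.39 without WT_d20_2) and *Slc25a5* by -0.59 (SE 0.25, adjusted p = 0.381).

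**Figure D4:**
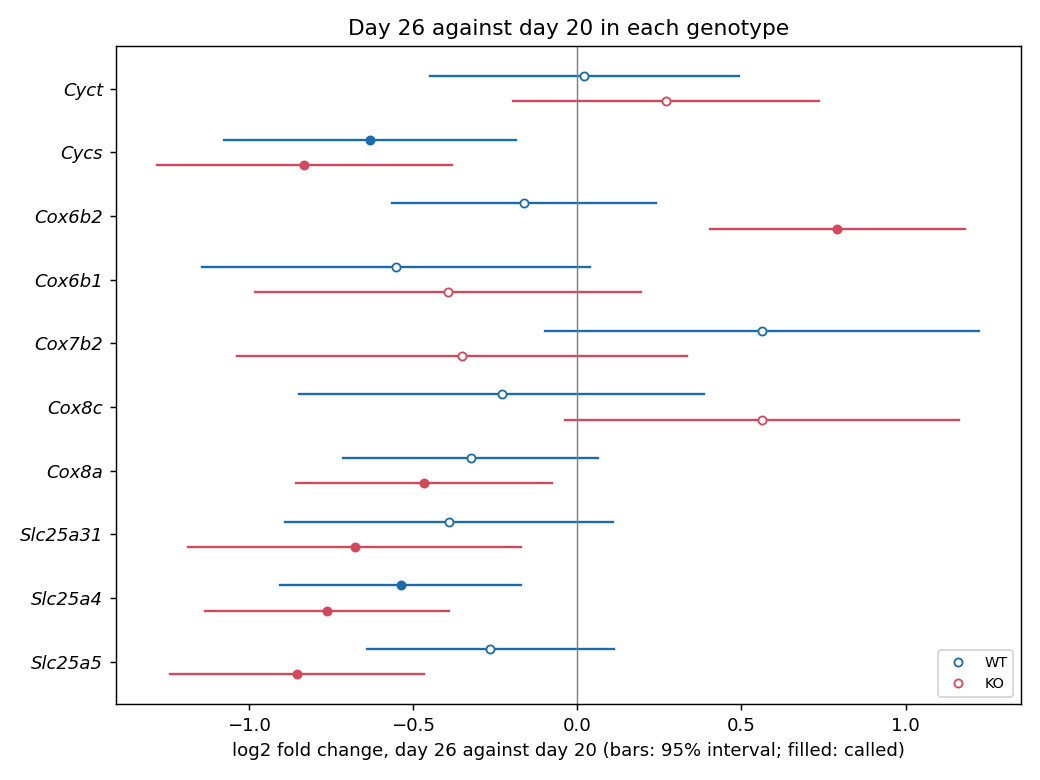
log2 fold change of day 26 against day 20 for each member in WT (blue) and KO (red) with 95% intervals, filled where called. Filled points are 2 in WT, both below 0, and 6 in KO, 1 above 0 (*Cox6b2*) and 5 below.

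Ratios of a testis form to its counterpart within a library do not depend on the scaling of libraries. They are log2 ratios per exon length, with a prior count of 0.5. Over the mean of the 4 days the ratio *Cox6b2*/*Cox6b1* was higher in KO by 0.54, with an exact permutation p of 0.0135 over 176400 relabellings within days (two-sided). Adjusted over the 6 ratios it was 0.0812 and missed the threshold. For the other 5 the adjusted p ranged from 0.229 to 0.724 and the differences from 0.03 to 0.21. At day 26 *Cox6b2*/*Cox6b1* was 1.29 and 1.50 in WT and 2.40 and 2.65 in KO, and at 2 against 2 libraries an exact permutation test cannot go below 0.333. At day 22 the highest value was 2.85 in KO_d22_4, the library with the lowest short-transcript score, and with it and WT_d20_2 removed the mean difference was 0.40 (adjusted p = 0.163, exact permutation).

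From day 20 to day 26 the ratio *Cyct*/*Cycs* was higher in every later library than in any earlier one, in both genotypes. It was 2.47 to 2.92 at day 20 and 3.31 and 3.48 at day 26 in WT, and 2.54 to 2.91 and 3.76 and 3.82 in KO. The differences were 0.66 in WT and 1.09 in KO, each with an exact permutation p of 0.0667, the smallest that 15 splits can give. The same smallest p was reached by *Cox7b2*/*Cox7b* in WT (0.95), *Cox6b2*/*Cox6b1* in KO (1.18) and *Cox8c*/*Cox8a* in KO (1.04). The carrier ratios changed by -0.07 to 0.22 in either genotype. *Cycs* and *Slc25a5* are under-counted, so the height of their ratios is less certain than a change between libraries.

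**Figure D5:**
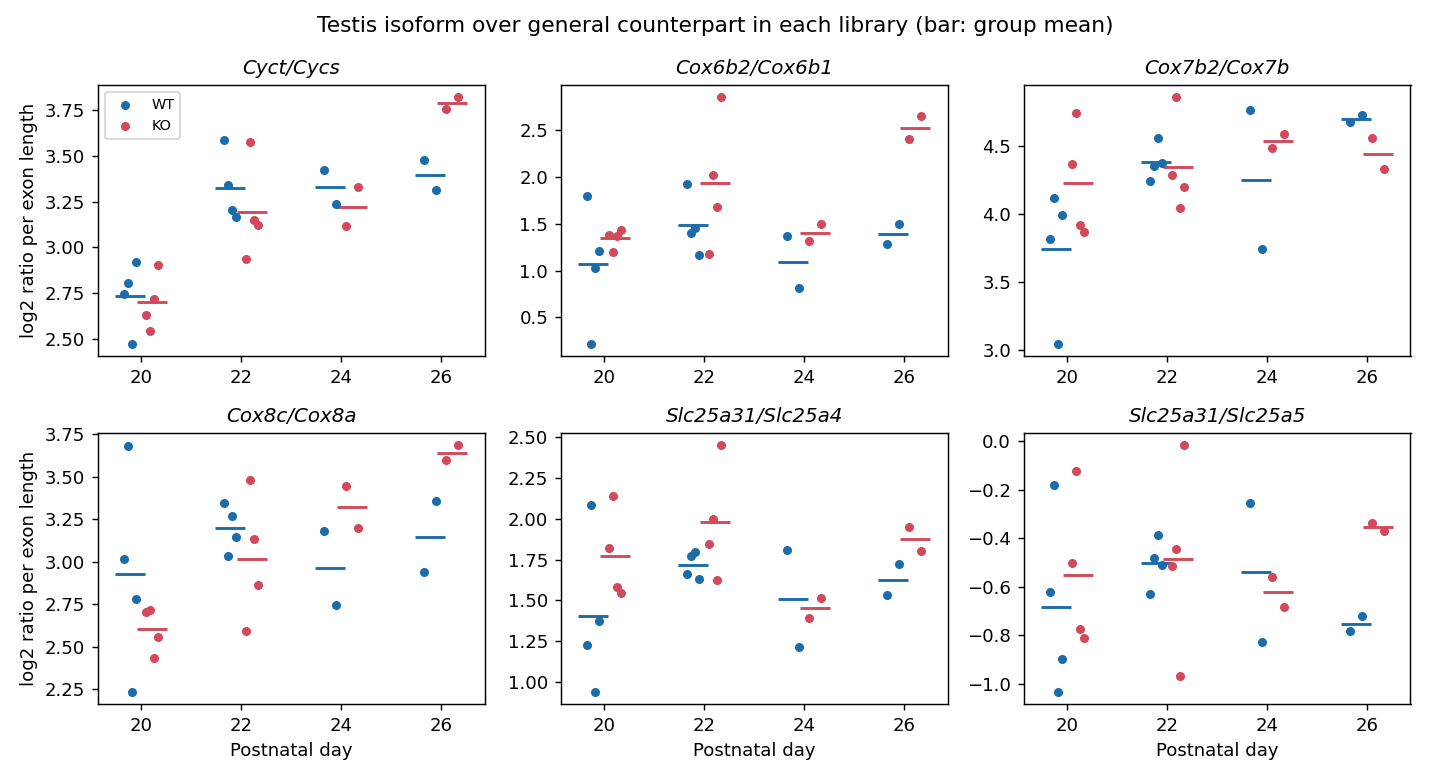
log2 ratio of each testis form to its counterpart per exon length, by postnatal day, WT blue and KO red, 1 point per library and a bar at each group mean. *Cyct*/*Cycs* lies higher at day 26 than at day 20 in both genotypes, and *Cox6b2*/*Cox6b1* in KO reaches 2.40 and 2.65 at day 26.

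Other genes of respiration were read from lists of 104 tested genes. In KO against WT, 2 of them were called at day 20, both higher: *Ndufb8*, a subunit of complex I (0.36, SE 0.092, adjusted p = 0.0313 in edgeR), and *Tomm20l*, a testis form of an import receptor of the outer membrane (0.97, SE 0.25, adjusted p = 0.0329). Neither was called when day 20 was fitted alone, a fit in which 5 genes were called, all lower. The 2 calls are 1.92% of the lists, where 3.34% of all genes were called. At day 20 round spermatid markers had a median sum of 3.54 CPM in WT against 30.6 CPM in KO, and elongating spermatid markers 0.897 against 12.4 CPM. Libraries of the genotypes overlapped for both sums, and their part in these 2 calls was not tested. None was called at days 22, 24 or 26. *Pdha1*, the general form of a pyruvate dehydrogenase subunit, was lower over the mean of the days (-0.46, SE 0.13, adjusted p = 0.0343), the only one called (0.962%, against 7.08% of all genes). None of 12 nuclear subunits and 21 assembly factors of complex IV, 12 genes of complex III and cytochrome c and 21 of ATP synthase and export was called in any of the comparisons of KO with WT.

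With age 20 of the 104 were called in WT, 12 higher and 8 lower, and 25 in KO, 12 higher and 13 lower. These are 19.2% and 24.0% of the listed genes, below the 42.5% and 52.2% of all genes. *Hccs*, which attaches haem to cytochrome c, fell by 0.85 in WT and 1.12 in KO (adjusted p = 0.00183 and 0.000147 in edgeR). *Gfer*, a sulfhydryl oxidase of the intermembrane space, rose by 0.95 and 1.08, and *Uqcrc1*, a core subunit of complex III, by 0.71 and 0.87. Of complex IV, the subunit *Cox5a* rose by 0.65 and 0.34, and the assembly factors *Coa7* (-0.70 and -0.75) and *Lrpprc* (-0.50 and -0.44) fell. *Tfam*, which packages mitochondrial DNA, rose by 0.68 and 0.79 and the nuclear receptor *Esrra* by 0.63 and 0.75, and *Tomm20l* rose by 2.39 and 1.70. Of 7 genes of the mitochondrial genome none was called with age in either genotype, but the files hardly count 3 of them. *COX2*, *COX3* and *ATP6* did not exceed 1.61, 2.03 and 1.33 CPM in any library, while the median of *ND1* was 4600 CPM.

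The genes whose levels were most like each testis form over the 24 libraries were found by Pearson's r of log2 CPM, as a description of libraries that share groups. They were *Cetn3* (0.91) for *Cyct*, *Cby1* (0.94) for *Cox6b2*, *Chchd1* (0.94) for *Cox7b2*, *Mt1* (0.93) for *Cox8c* and *Srsf3* (0.95) for *Slc25a31*. Among the members themselves r was 0.79 for *Cyct* and *Cox8c* and 0.19 for *Cyct* and *Cox6b2*. *Cyct* and *Cox8c* each also had an r of 0.80 with the short-transcript score, and *Cox6b2* 0.15.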

How the data were processed

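Whole-testis RNA of WT and *Atad2* KO mice was compared at 4 ages in 24 libraries, grouped by genotype and day as labelled. The authors aligned reads to mm10 with STAR 2.7.11b and counted pairs in exons with HTSeq, by strand and discarding multiple alignments; they used DESeq2 1.22.2 and SARTools for their own tests. What they deposited are unnormalized counts of pairs for each gene symbol. The version of the gene models is not given in the sources used here. The 5 tallies of unassigned pairs were left out (pairs outside exons took 45.1% to 58.5% of a table). At these depths 3 counts equal 0.154 to 0.28 CPM.

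Counts were scaled by TMM and fitted in edgeR 4.0.16 (R 4.3.3, limma 3.58.1) with filterByExpr at a minimum count of 10 and a robust quasi-likelihood fit of the 8 group means over all libraries. Tests were two-sided with Benjamini-Hochberg adjustment over 17170 genes and a threshold of 0.05. The procedure was tested on simulated data. Ratios were compared by exact permutation tests. Coordinates and coding sequences are from GENCODE M21, promoters from RefSeq (GRCm38.p6). Of 28 pairs of libraries within groups none agreed within sampling noise (lowest chi-square per degree of freedom 5.07).

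Named were all members, genes of the respiration lists called in KO against WT or with the 2 highest and 2 lowest log2 fold changes with age in WT, and the genes most like each testis form; of these, not all are printed. The members and lists were chosen with earlier results of these data known. Alternatives were DESeq2 1.42.0 size factors and test, no filter on low counts, a replicate block, each day alone, a prior count of 2 for ratios and leaving out each library. Removing WT_d20_2 and KO_d22_4 together and the short-transcript score as a covariate were chosen after seeing the data.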

Additional observations from a re-analysis of the deposited data

Results flagged for a closer look

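In groups of 4 libraries, 64 sets of values were examined for a library far from the other 3, and 5 were found; chance flags about 1 in 20 such groups. *Cox8c* stood at 455 CPM in WT_d20_2 against 168 to 201 CPM in the other 3, and at 321 CPM in WT_d22_1 against 235 to 243 CPM. *Cox6b2* stood at 178 CPM in WT_d20_1 against 129 to 134 CPM, and at 178 CPM in KO_d20_1 against 131 to 137 CPM. *Cox8a* stood at 46.3 CPM in KO_d20_1 against 35.1 to 36.7 CPM. WT_d20_2 is also the library with the highest short-transcript score (0.31), and the part of that score in the *Cox8c* value was not tested.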

How the results depend on the processing

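The counts of genes called moved with the fit and with single libraries. Fits of a single day called 5 (day 20), 69 (day 22) and 2104 (day 26) genes. DESeq2 called 892, 737, 40 and 159 at days 20 to 26, 272 for the difference between days and 211 for the age change between genotypes. Members called at day 26 were 4 with the day alone, 1 in DESeq2, 2 with the short-transcript score as a covariate and 1 with WT_d20_2 and KO_d22_4 both removed, where 12.8%, 0.743%, 1.36% and 1.87% of the genes tested were called. At day 20, 1 member was called with the score (*Cox6b1*, -0.34; 4.44% of all genes) and 1 with both libraries removed (*Cox7b2*, 0.69; 3.23% of all genes). For the mean of the days 1 was called in DESeq2 (*Cox6b2*) and 1 with the score (*Cox6b1*, -0.31), where 8.34% and 11.7% of the genes tested were called. The age change between genotypes had 1 member called in DESeq2 (*Cox6b2*), where 0.987% of the genes tested were called. For age in WT 4 were called with the replicate block and 5 with the score, where 45.2% and 51.6% of all genes were called. For age in KO 8 were called with the score and 8 with both libraries removed, where 59.3% and 61.2% of the genes tested were called. Genes called with the score were 234 at day 26 and 2006 for the mean, and with both libraries removed 26 at day 24, 321 at day 26, 2 for the difference between days and 33 for the age change between genotypes. The cause was not tested.

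No label says that a replicate number marks a shared animal or batch. The deviations of same-numbered libraries correlated by 0.071, 0.227, 0.249 and 0.41 (day 20), by -0.46 to -0.025 (day 22), by 0.39 (day 24) and by 0.416 (day 26), not all above 0.1, so the numbers were not treated as pairs. With the replicate block 9 genes were called at day 24, 5 at day 26 and 14 for the difference between days, and the sign turned for *Slc25a31* (-0.0076) and *Slc25a5* (-0.023) at day 22 and for *Cyct* with age in WT (-0.11).

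Leaving out 1 library at a time gave 151 to 780 genes called at day 20, 60 to 858 at day 22, 0 to 24 at day 24, 0 to 103 at day 26, 302 to 1737 for the mean, 0 to 140 for the difference between days, 4724 to 7971 for age in WT, 5829 to 10147 in KO and 0 to 326 between genotypes. Members called ran from 0 to 1 at day 26 and for the mean and reached 3 for age in WT. With all libraries, 0.0466% of all genes were called at day 26, 7.08% for the mean and 42.5% for age in WT. The ratio differences over the mean of days ran from 0.47 to 0.61 for *Cox6b2*/*Cox6b1*, passing without WT_d20_1, KO_d22_1 or WT_d24_1, from 0.13 to 0.28 for *Slc25a31*/*Slc25a4*, passing without WT_d24_1, from -0.0019 to 0.057 for *Cyct*/*Cycs* and from -0.0099 to 0.24 for *Cox7b2*/*Cox7b*. With age in WT they ran from -0.18 to 0.10 for *Slc25a31*/*Slc25a5*, which was 0.10 with both libraries removed, and from -0.014 to 0.47 for *Cox8c*/*Cox8a*.

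Log2 fold changes of members that turned sign, none called, ran at day 20 from -0.28 to 0.036 (*Cyct*), -0.23 to 0.049 (*Cycs*), -0.10 to 0.13 (*Cox6b2*), -0.032 to 0.15 (*Cox8a*), -0.51 to 0.073 (*Cox8c*) and -0.0096 to 0.14 (*Slc25a5*). At day 22 they ran from -0.17 to 0.055 (*Cycs*), -0.007 to 0.30 (*Cox6b2*), -0.098 to 0.089 (*Slc25a31*) and -0.11 to 0.12 (*Slc25a5*). At day 24 they ran from -0.11 to 0.16 (*Cox6b2*), -0.044 to 0.20 (*Cox7b2*), -0.30 to 0.13 (*Cox8a*), -0.11 to 0.40 (*Slc25a4*) and -0.072 to 0.42 (*Slc25a5*), and at day 26 from -0.26 to 0.15 (*Cox8a*). For the mean they ran from -0.10 to 0.017 (*Cox8a*), -0.019 to 0.13 (*Cox8c*) and -0.12 to 0.011 (*Slc25a5*). With age in WT they ran from -0.11 to 0.22 (*Cyct*) and -0.42 to 0.18 (*Cox8c*), and between genotypes from -0.12 to 0.32 (*Cox6b1*) and -0.33 to 0.082 (*Cox8a*). With both libraries removed, *Cyct* (0.061), *Cycs* (0.074), *Cox6b1* (0.0009), *Cox6b2* (-0.0043) and *Cox8c* (0.10) turned at day 20, *Cycs* (0.089) and *Cox8a* (0.0094) at day 22, *Cox7b2* (0.029) for the mean, *Cox8c* (0.24) with age in WT and *Cox6b1* (-0.16) between genotypes. With the score, *Cyct* turned at day 26 (-0.10), with age in WT (-0.13) and in KO (-0.031), *Cox8c* for the mean (-0.0028) and *Cox6b1* between genotypes (-0.054).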
